A study of Mus musculus with 8 samples.

Results

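The comparison described here is that of microglia from 10-week-old mice 14 days after stroke with microglia from sham-operated mice of that age. Its members are the 4 young libraries of the 8 libraries in the series, chosen by their labels, and all genes of the count table were examined in them. All mice were male C57BL/6 wild-type animals. The stroke group (n = 2) had distal middle cerebral artery occlusion (dMCAO), in which a branch of the artery that feeds the cortex is closed, and the control group (n = 2) had the sham operation. Brains were dissociated with enzymes and cells with intermediate CD45 and with CD11b on their surface were sorted by flow cytometry, so the libraries are of whole sorted populations. The series also holds sham and dMCAO libraries of 18-month-old mice (n = 2 each), which are used below only to set the values of both ages side by side. The series was titled for the chemotactic and angiogenic properties of microglia in old age after stroke, so chemokines and vessel growth factors are among the groups described. Whether a library came from 1 mouse or from several pooled mice is not given in the sources used here, so the tests measure the spread between these libraries.

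Microglia are the resident macrophages of the brain. In the healthy brain they keep a homeostatic state, held by signals such as TGF-beta, with the purine receptor P2ry12, the fractalkine receptor Cx3cr1 and Tmem119 as its best known markers. Around damaged, demyelinated or ageing tissue some of them take up what is called the disease-associated state, in which the sensor Trem2 and its partner Tyrobp are needed for genes of lipid handling, phagocytosis and lysosomes such as Apoe, Lpl, Cst7, Spp1, Itgax and Clec7a. A separate response runs through type I interferon, its receptor and transcription factors such as Irf7, and ends in antiviral effector genes. Inflammatory genes such as Il1b and Tnf follow NF-kB and AP-1. Homeostatic, disease-associated, interferon and inflammatory genes are therefore described one after the other.

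Total counts were 5767387 and 4645303 in sham and 4181698 and 5058884 in dMCAO. Levels below are in CPM, counts scaled to a common library size after the totals were scaled by trimmed mean of M-values (TMM) factors, and always stand in the order sham 1, sham 2, dMCAO 1, dMCAO 2. Across genes, log2 (CPM + 1) of the libraries of a group correlated with Pearson's r = 0.964 in sham and 0.967 in dMCAO, and between the groups with 0.949 to 0.957, where genes are not independent replicates. The sorted cells carried the markers of microglia in all 4 libraries. Csf1r, the receptor they need to survive, stood at 6080 and 6050 CPM in sham and at 4921 and 5509 CPM in dMCAO, and the 24 homeostatic genes summed to 46673, 45583, 42920 and 43686 CPM. Neuron markers summed to 0.955 to 6.01 CPM.

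The second deposited table, in FPKM, goes against the count table for the sham libraries. Over 5526 genes, the deviations of the FPKM column labelled young sham 1 from the gene means followed the count column of that library with r = 0.24 and those of the other young count columns with r = 0.23 to 0.29. In that FPKM column Spp1 stood at 531 FPKM and Gpnmb at 39.9 FPKM. The FPKM column labelled young sham 2 followed the counts of sham 1 (r = 0.62) more closely than those of sham 2 (r = 0.47). It had Spp1 at 0.667 and Gpnmb at 0.0196 FPKM, and the dMCAO columns had Spp1 at 74.9 and 80.3 and Gpnmb at 2.66 and 3.31 FPKM. In the count table both libraries labelled sham are low in both genes. Which table holds the library of that name was not tested, so the count table was used throughout, and results are also given without the library labelled young sham 1.

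After stroke, 160 of the 11337 tested genes were higher and 13 were lower at an adjusted p under 0.05, by edgeR's quasi-likelihood test with Benjamini-Hochberg adjustment over all tested genes. That is 1.41% and 0.115% of the genes tested, 1.53% in either direction, and 1241 genes had an unadjusted p under 0.05. Among the 173 called genes 92.5% were higher. Over all tested genes the median was −0.00 on the log2 scale, and 49.4% of them lay above 0. The higher genes had a median log2 fold change of 1.52 in size, with 55 above 2 and 24 below 1, and the lower genes a median of 1.43 in size. No called gene had overlapping groups, which is also true of 41.5% of all tested genes (20.8% higher, 20.7% lower). Calls depended on which libraries were fitted: without dMCAO 2 there were 50 higher and 5 lower genes, without dMCAO 1 158 and 10, without sham 1 363 and 64, and without sham 2 357 and 58, where a lone library is assumed to vary like the other group. Of the 160 and the 13, 44 and 5 were called in each of these 4 fits. In a fit of all 8 libraries, whose biological coefficient of variation was 0.570 against 0.198 in the young libraries alone, 1 gene was higher and 0 were lower.

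**Figure D1:**
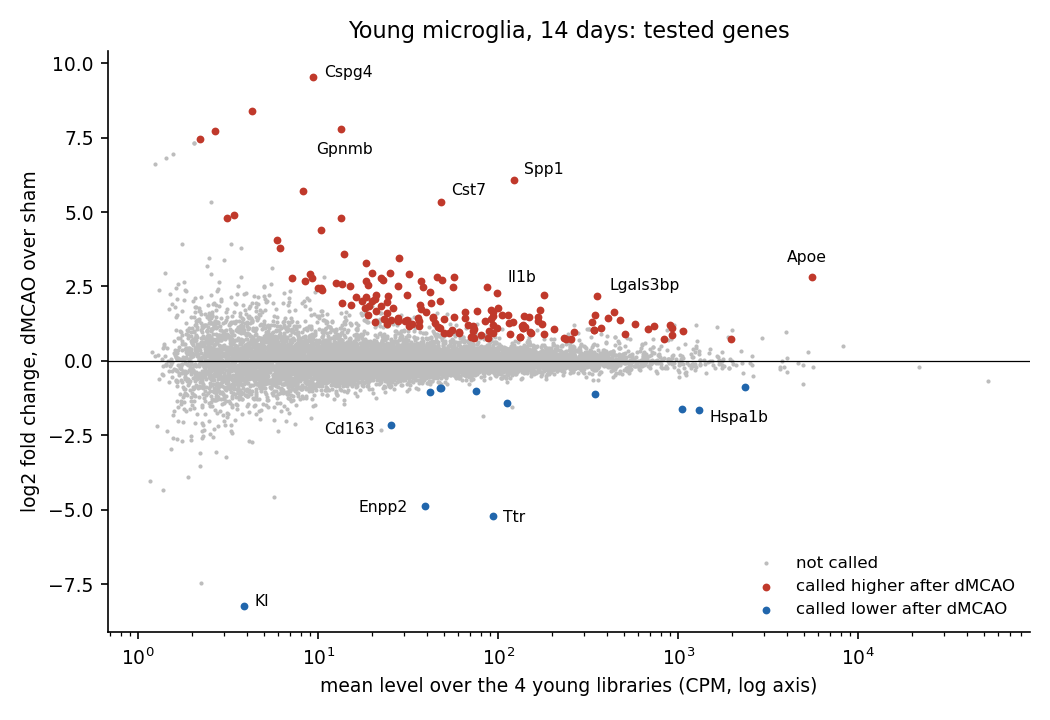
Log2 fold change of dMCAO over sham against the mean level in CPM, on a log axis, for each of the 11337 genes tested in the 4 young libraries, with called genes in red (higher, 160) and blue (lower, 13) and the others in grey. Cspg4 and Gpnmb had large differences at low levels, while Apoe combined a log2 fold change of 2.82 with levels up to 10178 CPM.

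Many genes of the disease-associated state rose. All 30 listed genes were tested and all 30 lay above 0, with a median log2 fold change of 1.04 (0.79 without sham 1, 1.82 without sham 2), and 15 of the 30 rose, against 1.41% of all tested genes. This list and the lists below were drawn up with earlier results of these data known, so their directions and call counts are descriptions. Of the 15, Gpnmb, Fabp5, Ch25h, Cst7 and Igf1 passed the filter on low counts only through the dMCAO group. The number of 15 was thus partly set by that filter. Spp1, which codes for osteopontin, a secreted matrix protein that binds integrins and CD44, was at 2.07, 5.37, 239 and 243 CPM. Both dMCAO libraries lay far above both sham libraries, and the log2 fold change was 6.06 ± 0.29 (SE, adjusted p = 5.96e-07), a 66.8-fold difference. Apoe, the lipoprotein that carries cholesterol between brain cells, was at 995, 1748, 9152 and 10178 CPM. The groups did not overlap and the difference was 7.05-fold (2.82 ± 0.23, adjusted p = 7.59e-05). Cst7, cystatin F, an inhibitor of lysosomal cathepsins, was at 3.11, 1.29, 82.6 and 105 CPM, higher in both dMCAO libraries by 5.35 ± 0.32 on the log2 scale (adjusted p = 4.25e-06). In the mouse genome (build mm10, GENCODE M21) Spp1 lies on chromosome 5 from 104435118 to 104441050, Apoe on chromosome 7 from 19696109 to 19699188 and Cst7 on chromosome 2 from 150570415 to 150578944, and all 3 are protein-coding.

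Surface receptors of the same state rose with them. Itgax, the integrin CD11c, was at 6.56, 8.59, 40.8 and 72.3 CPM, with dMCAO 2 the highest (2.91 ± 0.32, adjusted p = 0.000399). Clec7a, the beta-glucan receptor Dectin-1, was at 10.4, 18.2, 71.4 and 129 CPM (2.82 ± 0.31, adjusted p = 0.000415). Axl, a receptor tyrosine kinase that binds dying cells through Gas6, was at 25.7, 26.4, 114 and 179 CPM (2.49 ± 0.22, adjusted p = 9.77e-05). In these 3 receptors the lower dMCAO library was above the higher sham library and dMCAO 2 was above dMCAO 1. Csf1, the growth factor on which microglia depend, was at 73.9, 53.7, 255 and 339 CPM (2.21 ± 0.20, adjusted p = 9.77e-05). Igf1, a growth factor that acts on neurons and oligodendrocytes, was at 1.21, 9.02, 25.8 and 37.7 CPM, with the sham libraries further apart than the dMCAO libraries (2.69 ± 0.58, adjusted p = 0.0388). Lilrb4a, an inhibitory receptor, was at 17.3, 29.6, 68.3 and 58.0 CPM (1.44 ± 0.25, adjusted p = 0.0122).

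Lipid genes made up the next block. Lpl, lipoprotein lipase, was at 12.6, 9.88, 51.1 and 110 CPM (2.83 ± 0.33, adjusted p = 0.000631), and Fabp5, a fatty acid carrier, at 1.55, 0.215, 17.2 and 22.8 CPM (4.38 ± 0.62, adjusted p = 0.00259). Gpnmb, a membrane protein of foamy macrophages, had 1 count in the sham libraries together and 247 in the dMCAO libraries. Scaled to the totals this was 282-fold, and the exact 95% interval, which covers counting error only, ran from 50.2 to 11187. Ch25h, which makes 25-hydroxycholesterol, had 3 and 152 counts, which is 57.9-fold (19.4 to 284). Apoc1, a small apolipoprotein encoded next to Apoe, had 0 and 81 counts, at least 30.8-fold higher when the sham libraries together are set at 3 counts. Gpnmb, Ch25h and Apoc1 were almost silent in both sham libraries. Over the whole list of lipid handling and cholesterol efflux, 5 of 25 tested genes rose, against 1.41% of all tested genes. They were Apoe, Apoc1, Lpl, Fabp5 and Ch25h. Apoc1, Fabp5 and Ch25h passed the filter on low counts only through the dMCAO group, so the 5 was partly set by it. The list median was 0.21 (0.38 without sham 2). Of the 17 tested genes of cholesterol synthesis 0 were called, with a median of 0.10 that turned to −0.09 without dMCAO 2.

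Not every gene of the disease-associated state changed. Trem2, its receptor, was at 404, 547, 466 and 526 CPM, with overlapping groups (0.06 ± 0.17, adjusted p = 0.945). Tyrobp, the signalling partner of Trem2, was at 235, 265, 321 and 321 CPM, higher in both dMCAO libraries without passing the test (0.36 ± 0.14, adjusted p = 0.351). Of the lysosomal genes, Ctsb, cathepsin B, rose from 1388 and 1588 to 2200 and 2692 CPM (0.72 ± 0.16, adjusted p = 0.0420), and Gla, alpha-galactosidase, from 15.9 and 12.5 to 35.3 and 37.5 CPM (1.36 ± 0.26, adjusted p = 0.0202). These were the 2 called among 31 tested lysosomal genes, against 1.41% of all tested genes called higher. The lysosomal median was 0.21, 0.057 without dMCAO 2 and −0.10 on log2 (FPKM + 1). Leaving out dMCAO 2 kept 9 of the 15 calls of the disease-associated list: Spp1, Cst7, Lpl, Gpnmb, Apoe, Itgax, Clec7a, Axl and Csf1. Leaving out sham 1 or sham 2 kept all 15.

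**Figure D2:**
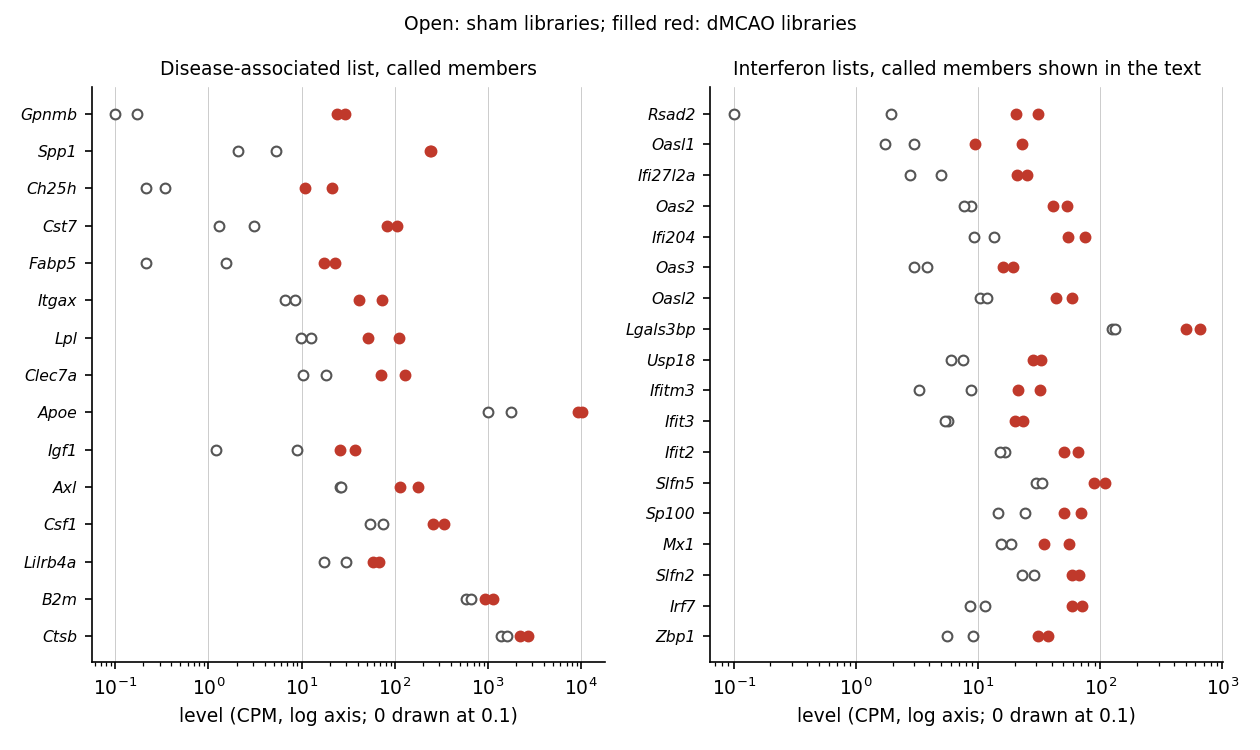
CPM per library on a log axis for called genes of the disease-associated list (left) and of the 2 interferon lists (right), with open circles for the 2 sham and filled circles for the 2 dMCAO libraries. In every row both filled circles lie to the right of both open ones, and Apoe has the highest dMCAO values in the plot.

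The homeostatic program moved little. None of its 24 genes was called by edgeR, 19 of the 24 lay below 0 and the median was −0.26, between −0.18 and −0.35 when each library was left out. P2ry12 was at 1242, 1345, 866 and 986 CPM (−0.48 ± 0.15, adjusted p = 0.175). Tmem119 was at 1132, 1357, 921 and 963 CPM (−0.40 ± 0.15, adjusted p = 0.310), and Cx3cr1 at 3993, 4018, 3158 and 3493 CPM (−0.27 ± 0.14, adjusted p = 0.558). For these 3 genes both dMCAO libraries were below both sham libraries, a pattern of 20.7% of all tested genes and of 17 of the 24. In libraries of whole populations, fewer cells of a kind and less RNA per cell cannot be told apart. On the list of TGF-beta signalling 1 of 16 tested genes rose, against 1.41% of all tested genes. It was the transcription factor Bhlhe40, at 2.07, 4.94, 35.1 and 32.0 CPM (3.28 ± 0.40, adjusted p = 0.000849). Bhlhe40 is also known as a repressor in the lipid and lysosome program of macrophages.

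Interferon effectors were the other large block. Of 44 tested effector genes 40 lay above 0 and 16 rose, with a median of 1.35 and none lower, beside 1.41% of all genes. Of the 16, Rsad2 and Oasl1 passed the filter on low counts only through the dMCAO group. In contrast to the effectors, the list of sensors, receptors and transcription factors of the pathway had 3 of 28 genes called, with a median of 0.19; the difference between the lists was not tested. The called genes of the effector list fall into families, and sequences upstream of some called genes are shown first, because they hold the letters by which interferon factors are known to bind.

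The windows below come from the RefSeq promoter table (build GRCm38.p6), which reaches from 250 bases before to 50 bases after a start site and had an entry for 8654 of the tested genes, 76.3%. They are written in the direction of the gene, and capitals mark matches on either strand to GAAA, 2 bases of any kind and GAAA, the core of the interferon-stimulated response element (ISRE). They were chosen after the values were seen, as called genes of 3 lists with a match upstream of the start.
Rsad2, chr12:26456518-26456617, minus strand: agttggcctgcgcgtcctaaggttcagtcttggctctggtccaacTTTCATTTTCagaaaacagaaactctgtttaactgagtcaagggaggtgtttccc
Ifit3, chr19:34583328-34583427, plus strand: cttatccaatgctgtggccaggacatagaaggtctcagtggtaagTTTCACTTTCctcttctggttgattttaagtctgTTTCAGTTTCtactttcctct
Oas3, chr5:120777680-120777779, minus strand: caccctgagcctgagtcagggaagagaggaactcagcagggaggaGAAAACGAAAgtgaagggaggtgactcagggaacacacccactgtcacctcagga
Cxcl10, chr5:92349048-92349139, minus strand: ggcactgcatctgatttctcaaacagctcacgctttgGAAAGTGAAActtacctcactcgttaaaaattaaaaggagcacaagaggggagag
B2m, chr2:122147503-122147602, plus strand: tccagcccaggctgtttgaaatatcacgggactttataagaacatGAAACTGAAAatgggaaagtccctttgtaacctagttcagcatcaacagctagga
Spp1, chr5:104434909-104435008, plus strand: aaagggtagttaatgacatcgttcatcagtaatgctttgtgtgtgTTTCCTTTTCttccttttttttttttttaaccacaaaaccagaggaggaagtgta

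The first match ends 110 bases before the start site in Rsad2, 146 in Ifit3, 65 in Oas3, 203 in Cxcl10, 129 in B2m and 147 in Spp1, and Ifit3 holds 2 matches. Of the 32 tested effector genes with a promoter entry 19 held the ISRE letters (59.4%), against 3.78% of all 8654 genes. Among the called effectors these were Ifit3, Ifitm3, Oas3, Rsad2 and Slfn5, and the other matches were in effectors that were not called. Among all genes called higher 12 of 119 held them (10.1%). A match describes the sequence and is not a measured binding site. The match in Spp1 lies beside a run of T, and that gene belongs to the disease-associated and not to the interferon list.

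Rsad2, viperin, which blocks the replication of many viruses, was at 0, 1.93, 30.8 and 20.6 CPM (4.81 ± 0.73, adjusted p = 0.00444). It lies on chromosome 12 from 26442746 to 26456452. Of the oligoadenylate synthetases and their relatives, which sense double-stranded RNA, Oas2 was at 8.80, 7.73, 53.9 and 40.9 CPM (2.51 ± 0.27, adjusted p = 0.000399) and Oasl2 at 10.4, 11.8, 58.7 and 43.7 CPM (2.21 ± 0.26, adjusted p = 0.000631). Oas3 and Oasl1 rose too, and in all 4 of these genes dMCAO 1 was the higher of the dMCAO libraries. Ifit2, an inhibitor of translation of viral RNA, was at 16.6, 15.03, 65.4 and 51.0 CPM (1.88 ± 0.23, adjusted p = 0.000879), and Ifit3 at 5.69, 5.37, 23.1 and 20.0 CPM (1.95 ± 0.37, adjusted p = 0.0167). Ifit3 has a near-identical copy, Ifit3b, and the Oas and Slfn families hold close relatives, so the share of reads each received is uncertain.

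Usp18, the protease that takes ISG15 off proteins and damps the interferon receptor, was at 6.04, 7.51, 32.5 and 28.0 CPM (2.16 ± 0.32, adjusted p = 0.00364). Lgals3bp, a secreted glycoprotein, was the most abundant called effector, at 124, 133, 504 and 656 CPM (2.18 ± 0.17, adjusted p = 4.26e-05). The DNA sensor Ifi204 was at 13.6, 9.23, 74.5 and 54.8 CPM (2.48 ± 0.26, adjusted p = 0.000336), a member of a family of close copies. Ifitm3, Ifi27l2a, Mx1, Slfn2, Slfn5 and Sp100 rose by 1.28 to 2.60 on the log2 scale. Isg15 itself was at 1.55, 2.36, 7.40 and 9.07 CPM and did not pass the test (2.07 ± 0.65, adjusted p = 0.190). The groups were apart in every one of the 16 called effectors, as in all 173 called genes. Outside the lists, Helz2, a helicase induced by interferon, was at 19.5, 14.2, 105 and 84.8 CPM (2.49 ± 0.22, adjusted p = 9.77e-05).

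Of the factors above the effectors, Irf7, which amplifies the type I response, was at 8.63, 11.4, 70.9 and 58.2 CPM, a 6.48-fold difference (2.69 ± 0.25, adjusted p = 9.77e-05). It lies on chromosome 7 from 141262706 to 141266481. Zbp1, a sensor of Z-form nucleic acids, was at 9.15, 5.58, 37.7 and 31.2 CPM (2.21 ± 0.33, adjusted p = 0.00356). Without dMCAO 2, 11 of the 16 effectors were still called, and 9 were called in all 4 fits that left out a library: Ifit2, Ifi204, Usp18, Rsad2, Oas2, Oasl2, Slfn5, Lgals3bp and Sp100.

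MHC class I, which displays peptides from inside the cell, rose in its heavy chains, light chain and transactivator. H2-D1 was at 45.2, 45.5, 154 and 154 CPM, so the libraries of a group were almost equal and the groups 3.39-fold apart (1.76 ± 0.16, adjusted p = 9.77e-05). H2-K1 was at 414, 270, 793 and 815 CPM (1.23 ± 0.19, adjusted p = 0.00471) and B2m, the shared light chain, at 587, 656, 932 and 1146 CPM (0.74 ± 0.16, adjusted p = 0.0318). Nlrc5, which switches class I genes on, was at 17.4, 17.6, 72.3 and 61.3 CPM (1.93 ± 0.21, adjusted p = 0.000399). With H2-Q4 these are 5 of 14 tested genes of class I and peptide loading, against 1.41% of all tested genes. The median of the 14 was 0.33. Heavy chain genes are close copies, so reads may have been split between them. H2-T22 had no count in any of the 4 libraries.

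On the class II side 1 of 14 tested genes was called, against 1.41% of all tested genes called higher. It was the invariant chain Cd74, at 159, 186, 300 and 284 CPM (0.76 ± 0.15, adjusted p = 0.0230). The class II median was 0.44, 0.16 without sham 1 and 0.57 without sham 2. The proteasome, which cuts the peptides for class I, had 0 of 21 genes called, with a median of −0.04, a value that lay between −0.09 and 0.10 when a library was left out.

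Inflammatory signals also rose. Among 16 tested cytokine genes 4 were higher, Il1b, Tnf, Osm and Csf1, against 1.41% of all tested genes. Il1b, interleukin 1 beta, was at 33.0, 33.7, 156 and 170 CPM, a 4.89-fold difference with close libraries in each group (2.29 ± 0.17, adjusted p = 3.43e-05). Tnf was at 63.8, 32.8, 104 and 171 CPM (2.83-fold, adjusted p = 0.0200) and Osm, oncostatin M, at 67.1, 51.3, 108 and 129 CPM (1.00 ± 0.19, adjusted p = 0.0156). Il1b and Csf1 were called in each fit that left out a library, and Tnf and Osm were not called without dMCAO 2.

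Chemokine ligands, which draw other immune cells, had 5 of 15 tested genes higher, against 1.41% of all tested genes. The list median was 0.97, 0.71 without dMCAO 2 and 1.32 without dMCAO 1. Ccl3 was at 302, 228, 623 and 756 CPM (1.38 ± 0.17, adjusted p = 0.00101) and its neighbour Ccl4 at 188, 167, 297 and 401 CPM (0.97 ± 0.17, adjusted p = 0.0115). Both are made early by activated macrophages. Ccl12, a ligand of the monocyte receptor Ccr2, was at 38.1, 32.0, 87.3 and 104 CPM (1.44 ± 0.19, adjusted p = 0.00129). Cxcl10, which draws T cells through Cxcr3, was at 7.59, 5.37, 19.1 and 28.4 CPM (1.86 ± 0.37, adjusted p = 0.0241), and Cxcl16 at 84.2, 91.0, 141 and 234 CPM (1.10 ± 0.21, adjusted p = 0.0202). Every one of these 5 genes was higher in both dMCAO libraries, as was every gene called higher. Of the 15 chemotactic receptors tested 0 were called. The 2 with the smallest p were Lpar6, a receptor for lysophosphatidic acid, at 49.2, 44.9, 27.0 and 22.4 CPM (−0.93 ± 0.22, adjusted p = 0.0565), and Ccrl2, an atypical receptor that holds chemerin, at 83.3, 57.3, 114 and 131 CPM (0.80 ± 0.20, adjusted p = 0.0701).

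Beneath these ligands, 23 of 23 tested genes of the NF-kB pathway and its targets lay above 0, against 49.4% of all tested genes. As for the other lists, this is a description, since members were chosen with earlier results of these data known. Their median was 0.78, 0.67 without sham 2 and 1.21 without sham 1. Of the 23, 6 rose, against 1.41% of all tested genes. Ikbke, a kinase that feeds NF-kB and interferon factors, was at 6.73, 5.15, 36.3 and 43.1 CPM (2.73 ± 0.30, adjusted p = 0.000415). Tnfaip3, the enzyme A20 that ends NF-kB signals, was at 744, 413, 1241 and 1273 CPM (1.12 ± 0.22, adjusted p = 0.0235). Cd83 was at 557, 351, 907 and 1121 CPM (1.16 ± 0.20, adjusted p = 0.0122), and Icam1, a ligand for leukocyte integrins, at 270, 176, 384 and 528 CPM (1.03 ± 0.21, adjusted p = 0.0260). In the last 3 genes sham 1 was well above sham 2. Nfkbib and Zc3h12a completed the 6, and Ikbke was the 1 of them called without dMCAO 2.

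Immediate early genes, which answer within minutes to many stimuli and also to the dissociation of tissue, were also lower in sham 2 than in sham 1. The 28 listed genes summed to 33145, 17708, 43377 and 39956 CPM, so that sham 2 was far below sham 1, and the NF-kB list summed to 4050, 2497, 5860 and 6483 CPM. All 28 lay above 0, against 49.4% of all tested genes. Their median was 0.99, 1.35 without sham 1 and 0.49 without sham 2. Of the 28, 6 rose, against 1.41% of all tested genes. Fos was at 1948, 652, 2935 and 2408 CPM (1.04 ± 0.35, adjusted p = 0.234) and Egr1 at 4345, 1064, 5579 and 4938 CPM (0.96 ± 0.42, adjusted p = 0.430). The spread between the sham libraries was large against the difference between the groups in both. Fosl2, an AP-1 subunit, was even within groups at 46.4, 44.9, 144 and 140 CPM (1.64 ± 0.16, adjusted p = 0.000183). Nr4a1 was at 256, 181, 504 and 687 CPM (1.45 ± 0.20, adjusted p = 0.00185), and Ier3, Klf2, Klf4 and Gem rose by 1.12 to 1.39. The part of dissociation in the inflammatory results was not tested. Il1b and Ikbke differed little between the sham libraries, and Tnf, Tnfaip3, Icam1 and Cd83 followed the order of the immediate early genes in them.

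AP-1 is built from Fos and Jun proteins, and windows of 2 called genes with its letters, TGANTCA in capitals, are shown in the direction of the gene from the same table.
Itgax, chr7:128129449-128129545, plus strand: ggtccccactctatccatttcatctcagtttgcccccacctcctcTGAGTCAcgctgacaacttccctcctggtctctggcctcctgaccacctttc
Tnfaip3, chr10:19015495-19015591, minus strand: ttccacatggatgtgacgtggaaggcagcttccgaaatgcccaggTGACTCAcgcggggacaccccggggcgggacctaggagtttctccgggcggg
The letters end 49 bases before the start site in Itgax and 129 in Tnfaip3. They were in 16 of 119 promoters of genes called higher (13.4%) and in 5.85% of all 8654, in 10 of the 32 effectors of interferon (31.2%) and in 1 of 22 immediate early genes (4.55%). The NF-kB letters, GGGA, 1 base of any kind and TTTCC, were in 3 of the 119 (B2m, Csf1 and Hpn) and in 0.555% of all.

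Heat shock genes were among the few that fell. Of 19 tested genes 15 lay below 0, 4 fell and none rose, with a median of −0.49 (−0.32 without sham 1), beside 0.115% of all genes called lower. Hspa1a and Hspa1b, the inducible forms of the chaperone Hsp70, lie next to each other on chromosome 17, from 34969190 to 34972156 and from 34956436 to 34959238. Hspa1b was at 1529, 2417, 619 and 643 CPM (−1.64 ± 0.20, adjusted p = 0.000783) and Hspa1a at 1255, 1903, 465 and 569 CPM (−1.61 ± 0.20, adjusted p = 0.000884). The 2 genes are near-identical copies, so the split of reads between them is uncertain, but both showed the same order of libraries. Hsph1, a partner of Hsp70, was at 485, 455, 201 and 235 CPM (−1.11 ± 0.15, adjusted p = 0.00169), and Hsp90aa1, the inducible form of Hsp90, at 2883, 3229, 1460 and 1882 CPM (−0.87 ± 0.16, adjusted p = 0.0161). All 19 genes together summed to 21152, 19072, 14026 and 14846 CPM. Here sham 1 and sham 2 were close, unlike in the immediate early genes, which summed highest in the dMCAO libraries. The heat shock element, GAA, TTC and GAA with 2 bases of any kind between each, stood in 4 of 15 promoters of the list (Chordc1, Hspd1, Hspe1 and Hsph1; 26.7%) and in 0.612% of all 8654.

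**Figure D3:**
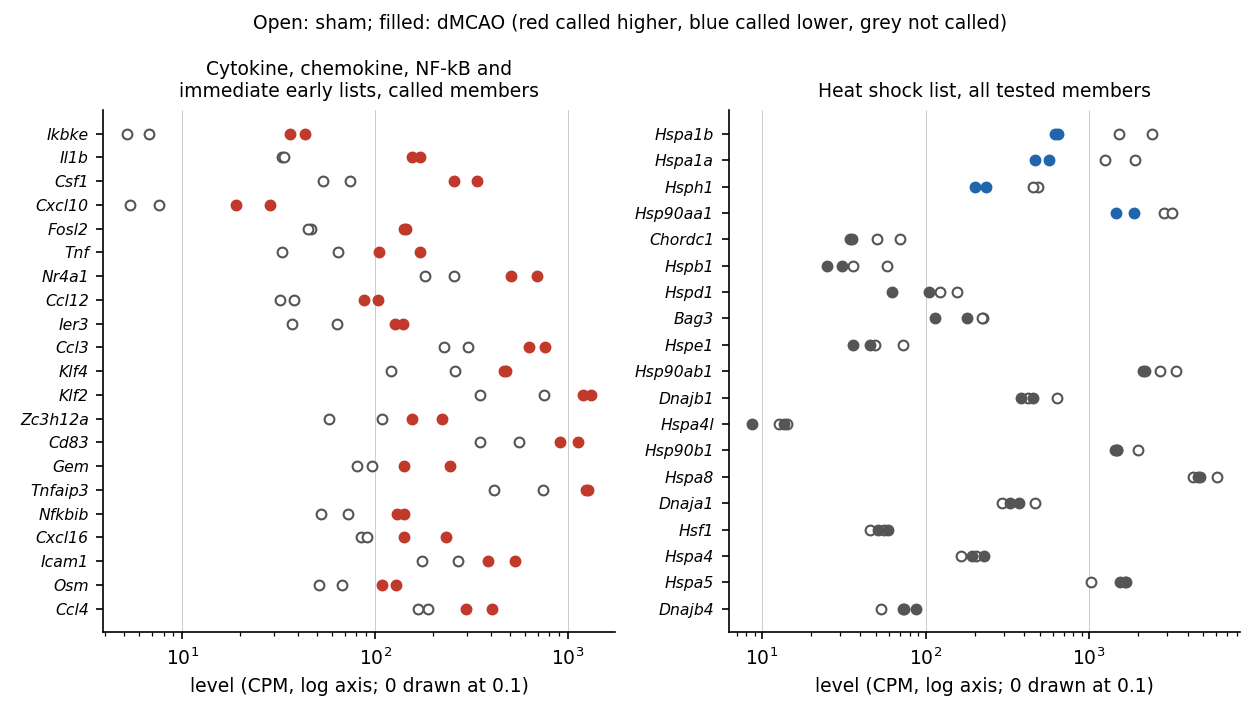
CPM per library on a log axis for the called genes of the cytokine, chemokine, NF-kB and immediate early lists (left) and for all 19 tested heat shock genes (right), with open circles for sham and filled circles for dMCAO. In the left panel the open circles of several genes are wide apart (Klf2 347 and 750 CPM), and in the right panel the 4 blue rows have both dMCAO libraries to the left of both sham libraries.

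Receptors that recognise damage and debris changed in a few members. Tlr2 was at 111, 96.6, 213 and 280 CPM (1.25 ± 0.17, adjusted p = 0.00212) and its co-receptor Cd14 at 189, 170, 279 and 319 CPM (0.73 ± 0.15, adjusted p = 0.0275). With Casp4, the sensor of cytosolic lipopolysaccharide, these were the 3 called of 20 genes of Toll-like receptors and inflammasomes. Of all tested genes 1.41% were called higher. The median of the 20 was 0.13, and −0.15 on log2 (FPKM + 1). Clec4e, the receptor Mincle that binds material of dead cells, rose from 0.173 and 1.503 to 13.8 and 8.87 CPM (3.80 ± 0.80, adjusted p = 0.0335), and Cd300lf, a receptor for lipids on dying cells, from 4.14 and 2.79 to 25.8 and 17.5 CPM (2.62 ± 0.43, adjusted p = 0.00741). Those 2 and Axl were the called genes among 20 phagocytic and Fc receptors, against 1.41% of all tested genes called higher. Clec4e passed the filter on low counts only through the dMCAO group. The median of these 20 receptors was 0.09 (0.03 without dMCAO 2, 0.17 without sham 2).

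Complement was divided. C4b, which deposits on targets early in the cascade, was at 12.3, 15.9, 77.3 and 62.7 CPM (2.32 ± 0.23, adjusted p = 0.000183) and Cfb, factor B of the alternative pathway, at 1.04, 0.215, 12.2 and 10.3 CPM (4.05 ± 0.75, adjusted p = 0.0153). The other 8 of 10 tested complement genes were not called, while 1.41% of all tested genes were called higher. Cfb passed the filter on low counts only through the dMCAO group. The complement median was 0.10, turning to −0.05 without dMCAO 2 or without sham 1. Among inhibitory receptors Pdcd1, which codes for PD-1, rose from 2.07 and 1.503 to 13.1 and 11.9 CPM (2.78 ± 0.55, adjusted p = 0.0241), and Lag3 from 215 and 166 to 310 and 327 CPM (0.74 ± 0.16, adjusted p = 0.0400). Siglece, an inhibitory receptor for sialic acid, went the other way, from 69.7 and 54.1 to 30.5 and 34.5 CPM (−0.93 ± 0.21, adjusted p = 0.0442). With Lilrb4a these are 3 higher and 1 lower of 13, against 1.41% and 0.115% of all tested genes. Pdcd1 passed the filter on low counts only through the dMCAO group. The median of the 13 was −0.06, and lay between −0.10 and 0.10 when each library was left out.

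For angiogenesis and growth factors, the theme named in the title, the median was 0.36, and 0.12 without dMCAO 2. Of 22 tested genes 5 rose, against 1.41% of all tested genes. They were Spp1, Igf1 and Osm, given above, with Thbs1 and Plaur. Thbs1, thrombospondin 1, an inhibitor of vessel growth that also activates TGF-beta, was at 41.2, 103, 243 and 167 CPM (1.51 ± 0.32, adjusted p = 0.0348). Plaur, the urokinase receptor, was at 29.2, 29.2, 61.1 and 66.3 CPM (1.13 ± 0.19, adjusted p = 0.00974). So the called genes include factors known to promote vessel growth and 1 known to restrain it. Vegfa was at 12.4, 16.3, 32.5 and 30.4 CPM (1.13 ± 0.28, adjusted p = 0.0682) and Hif1a, the oxygen-regulated factor that controls it, at 157, 150, 216 and 292 CPM (0.73 ± 0.17, adjusted p = 0.0549). Neither passed, though in both the dMCAO libraries were above the sham libraries. Without dMCAO 2 the call remained for Spp1 alone of the 5.

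Matrix and its enzymes had 3 of 24 genes higher, against 1.41% of all tested genes. Their median was 0.91, and it was 0.56 without sham 1, 1.401 without sham 2 and −0.10 on log2 (FPKM + 1). Adamts1, a protease that cuts the proteoglycans of the matrix, was at 227, 199, 633 and 696 CPM (1.64 ± 0.15, adjusted p = 9.77e-05). Adam8, a membrane protease of leukocytes, was at 4.83, 9.23, 31.7 and 24.4 CPM (2.01 ± 0.37, adjusted p = 0.0156). Itgax and Icam1 were the 2 called among 22 adhesion genes, against 1.41% of all tested genes called higher. On the list of alternative activation Klf4 and Myc rose and the scavenger receptors Mrc1 and Cd163 fell. The list thus had 2 called in each direction among 11 tested, against 1.41% higher and 0.115% lower of all tested genes.

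Metabolism and growth changed in single genes. Glycolysis had 17 of 20 genes above 0, against 49.4% of all tested genes. Its median was 0.27, and −0.12 on log2 (FPKM + 1). Of the 20, 2 were higher, against 1.41% of all tested genes. They were Slc2a1, the glucose transporter, at 54.5, 40.1, 91.4 and 108 CPM (1.07 ± 0.19, adjusted p = 0.0142), and Pfkfb3, which makes the activator of phosphofructokinase, at 379, 323, 571 and 740 CPM (0.90 ± 0.17, adjusted p = 0.0147). None was called by edgeR of 29 genes of oxidative phosphorylation (median −0.02), of 27 genes of iron and oxidative stress (0.28), of 45 cytosolic ribosomal protein genes (0.23), of 17 ion channels and purine receptors (0.06) or of 21 genes of S phase (−0.12). The ribosomal median was 0.00 without sham 1 and 0.54 without sham 2. When each library was left out, the median of oxidative phosphorylation lay between −0.22 and 0.23. That of ion channels then lay between −0.02 and 0.06 and that of S phase between −0.28 and −0.06. On log2 (FPKM + 1) the ribosomal median was −0.08, that of iron and oxidative stress −0.14 and that of ion channels −0.16. The medians of oxidative phosphorylation and S phase kept their sign there. Of 23 mitosis genes 1 was called, against 1.41% of all tested genes called higher. It was Cdkn1a, the inhibitor p21 that holds the cycle, at 24.7, 13.5, 45.1 and 59.2 CPM (1.44 ± 0.28, adjusted p = 0.0226).

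**Figure D4:**
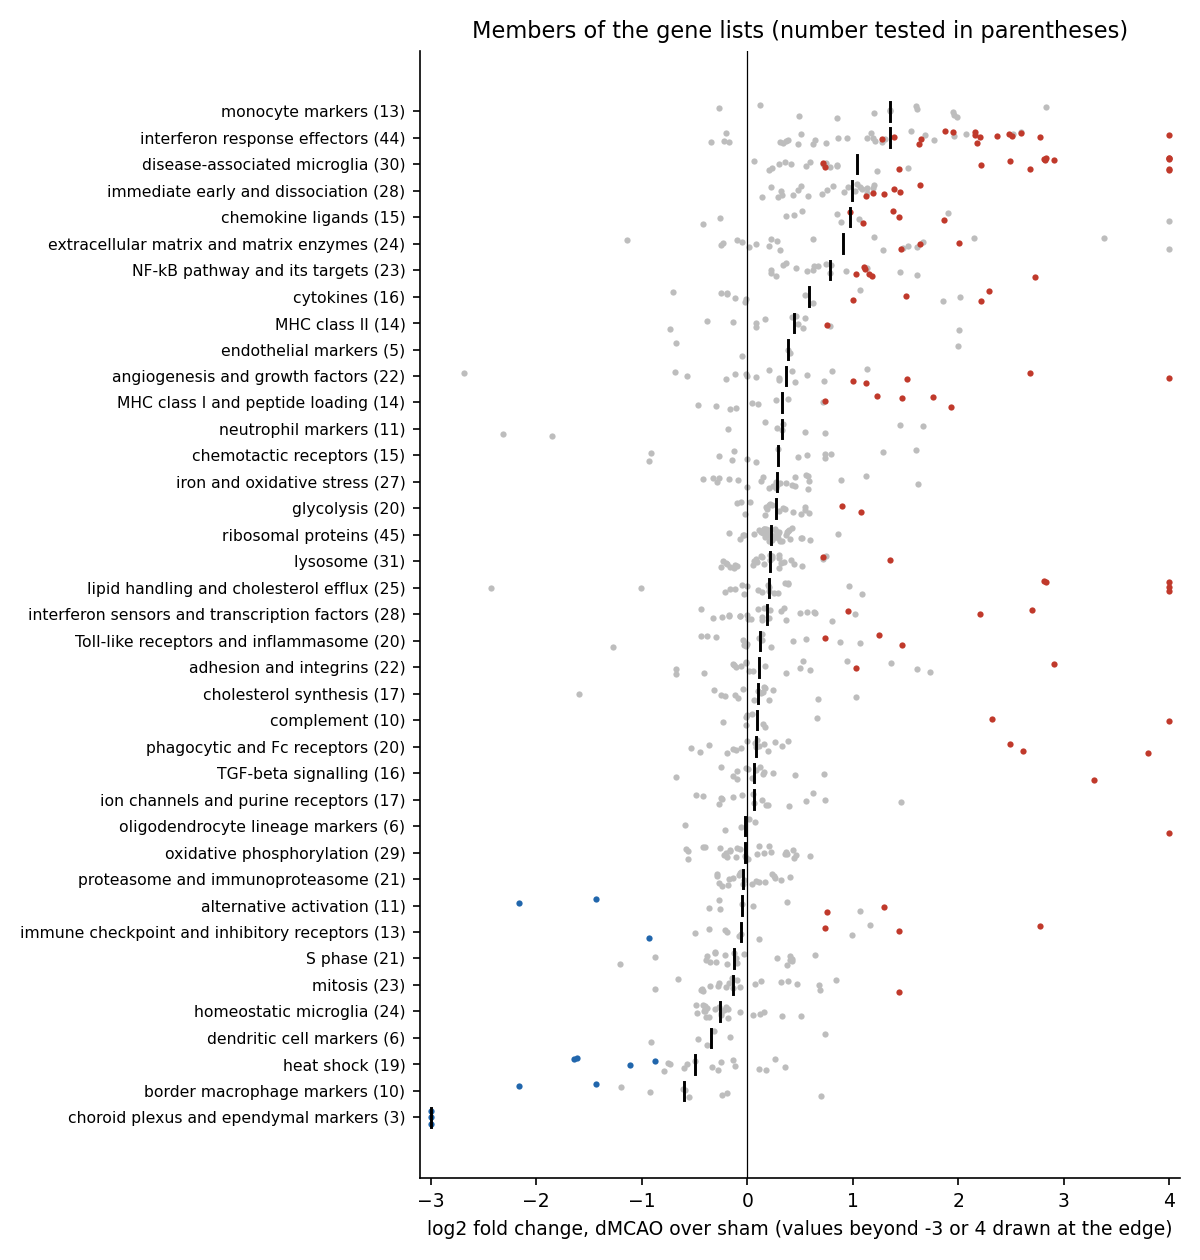
Log2 fold change of dMCAO over sham for each tested gene of the gene lists, 1 row per list, with called genes in red (higher) and blue (lower), other genes in grey and the list median as a black tick. The disease-associated and interferon effector rows hold the most red points (15 and 16), the heat shock row holds 4 blue points, and the homeostatic row has 24 grey points around a median of −0.26.

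Of the 173 called genes 91 are members of a list and 82 are not, 79 of those higher and 3 lower. Transcription factors and signal genes were among the 79. Nr4a3, an orphan nuclear receptor, was at 13.5, 12.02, 47.3 and 122 CPM (2.73 ± 0.37, adjusted p = 0.00169), and Id2, an inhibitor of helix-loop-helix factors, at 44.9, 40.1, 106 and 172 CPM (1.71 ± 0.22, adjusted p = 0.00129). Bcl6, a repressor, was at 64.0, 48.7, 120 and 139 CPM (1.20 ± 0.18, adjusted p = 0.00477), and Mitf, a regulator of lysosomal and Gpnmb genes, at 65.2, 63.3, 111 and 110 CPM (0.78 ± 0.16, adjusted p = 0.0279). Pim1, a kinase induced by cytokines, was at 15.5, 18.7, 64.2 and 51.0 CPM (1.75 ± 0.23, adjusted p = 0.00142).

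Receptors and surface proteins outside the lists rose as well. Cd72, a lectin of B cells and macrophages, was at 6.56, 4.72, 43.7 and 44.9 CPM (2.96 ± 0.29, adjusted p = 0.000183), and Ptger4, the prostaglandin E2 receptor EP4, at 3.62, 7.73, 30.5 and 47.2 CPM (2.80 ± 0.38, adjusted p = 0.00185). Hcar2, the receptor for niacin and the ketone body beta-hydroxybutyrate, was at 5.35, 5.797, 27.7 and 37.1 CPM (2.54 ± 0.33, adjusted p = 0.00128). Adora1, the A1 adenosine receptor, had 0 and 50 counts, at least 19.0-fold higher. Fgl2, a prothrombinase and immune regulator, was at 8.11, 7.73, 34.6 and 28.8 CPM (2.00 ± 0.30, adjusted p = 0.00444). Rai14 and Chst2, a cytoskeletal protein and a sulfotransferase, were at 2.24, 1.93, 20.3 and 31.2 CPM and at 3.11, 6.44, 31.3 and 71.1 CPM (3.61 ± 0.43 and 3.45 ± 0.43). The 3 lower genes outside the lists were Bank1, a scaffold of B cell signalling, at 107, 93.4, 54.2 and 46.4 CPM (adjusted p = 0.0122), Sema6d, a semaphorin, at 53.7, 59.5, 26.7 and 28.0 CPM (−1.04 ± 0.20, adjusted p = 0.0194), and the orphan receptor gene Gpr165 at 65.6, 59.5, 31.3 and 35.7 CPM (−0.90 ± 0.19, adjusted p = 0.0365).

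Several of the genes that fell are markers of other cells. Ttr, Enpp2 and Kl are made by the choroid plexus, the tissue that secretes cerebrospinal fluid. They are the 3 of 9 listed genes that passed the filter on low counts, and all 3 fell, beside 0.115% of all tested genes. All 3 passed that filter only through the sham group, so the count of 3 and its common direction were largely set by the filter. Ttr, transthyretin, was at 76.3, 287, 8.35 and 1.81 CPM (−5.20 ± 0.63, adjusted p = 0.000849), and Enpp2, autotaxin, at 45.6, 106, 3.10 and 2.02 CPM (−4.88 ± 0.44, adjusted p = 9.77e-05). Kl, klotho, had 76 counts in the sham libraries and 0 in the dMCAO libraries, at least 22.2-fold lower. The 9 listed markers together summed to 128, 418, 12.9 and 3.83 CPM, and of the other 6 Folr1, Kcnj13 and Clic6 had counts in both sham libraries and none in a dMCAO library. Mrc1 and Cd163 are markers of border macrophages as well as of alternative activation. Mrc1 was at 126, 200, 53.0 and 67.1 CPM (−1.43 ± 0.22, adjusted p = 0.00492) and Cd163 at 30.2, 52.4, 8.83 and 9.47 CPM (−2.16 ± 0.32, adjusted p = 0.00356), and 9 of the 10 tested border macrophage markers lay below 0. Their list summed to 682, 996, 481 and 518 CPM. Neither gene was called without dMCAO 2. The border macrophage list had a median of −0.60, −1.09 without sham 1 and −0.056 without sham 2. Of all 11337 tested genes 5732 lay below 0. The part of these other cells in the lower genes was not tested.

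Blood-derived cells varied most between the sham libraries. Monocyte markers summed to 231, 873, 1300 and 843 CPM and neutrophil markers to 386, 1308, 966 and 861 CPM, with 0 of 13 and 0 of 11 called by edgeR. Ccr2, the monocyte receptor, was at 6.90, 15.2, 46.1 and 20.8 CPM (1.60 ± 0.43, adjusted p = 0.102), and Plac8 at 0.518, 4.94, 28.4 and 9.27 CPM (2.83 ± 0.76, adjusted p = 0.106). In the monocyte sum sham 2 was above dMCAO 2, and sham 1 was the lowest. Even so, 12 of the 13 monocyte markers lay above 0, with a list median of 1.35. That median was 0.36 without sham 1 and 3.65 without sham 2. The part of blood-derived cells in the higher genes was not tested. Markers of T and NK cells summed to 21.0 to 35.4 CPM and those of B cells to 6.38 to 13.1 CPM. Erythroid markers summed to 0 CPM in both sham libraries and to at most 1.43 CPM in dMCAO.

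Cspg4, the proteoglycan NG2 of oligodendrocyte precursors and pericytes, had 0 counts in the sham libraries and 176 in the dMCAO libraries, at 13.8 and 23.8 CPM, at least 67.0-fold higher (adjusted p = 0.000455). It lies on chromosome 9 from 56865033 to 56899870. Other genes of oligodendrocyte precursors were low in all 4 libraries: Pdgfra was at 0.345, 0.859, 1.43 and 2.02 CPM, Olig2 at 0, 0, 0 and 1.41 CPM and Sox10 at 1.73, 0.429, 0.477 and 1.81 CPM. Markers of mature oligodendrocytes were even, with Mbp at 29.9, 36.1, 37.7 and 29.0 CPM. The pericyte gene Pdgfrb was at 0.518, 0.215, 1.43 and 0 CPM and Rgs5 had at most 0.215 CPM in a library. The cell that gave the Cspg4 reads was not tested.

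Set beside the aged mice, most of the higher genes had the same direction. In the fit of all 8 libraries, 110 of the 160 lay above 0 in aged mice (68.8%), against 40.0% of all tested genes, and their median was 0.78 in aged and 1.52 in young mice. The aged values are from the count table, since the FPKM columns of the 2 aged dMCAO libraries followed each other's counts (r = 0.84 and 0.89). Spp1 was at 27.2 and 13.8 CPM in aged sham and at 441 and 552 CPM in aged dMCAO. Apoe was at 9983 and 2456 CPM in aged sham and at 15860 and 17856 CPM in aged dMCAO, so that 1 aged sham library had as much as the young dMCAO libraries. Il1b was at 85.9 and 379 CPM in aged sham and at 323 and 265 CPM in aged dMCAO, with overlapping groups. Of the 13 lower genes 5 lay below 0 in aged mice, against 59.4% of all genes. Hspa1b was at 168 and 254 CPM in aged sham and at 698 and 637 CPM in aged dMCAO, the opposite order of the young groups.

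The test of the difference between the ages, the interaction of surgery and age over all 8 libraries, called 0 of 11955 genes with edgeR (0%), with 1242 at an unadjusted p under 0.05 and a smallest adjusted p of 0.154. DESeq2 called 300, edgeR without the filter on low counts 210, and edgeR without young sham 1 called 2. The median of that difference was −0.36 over all genes, and −0.24 with RLE scaling. So no gene was shown to respond differently at the 2 ages in the filtered edgeR fit of all 8 libraries. In 3 of the aged libraries the total was 747637 to 1484870 counts; the part of depth in that result was not tested. The 5 genes with the smallest p were Ttr, Enpp2, Hspa1b, Ralgapa1 and Btaf1, each with an adjusted p of 0.154, and for Hspa1b the aged minus young difference was 3.30 ± 0.48.

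**Figure D5:**
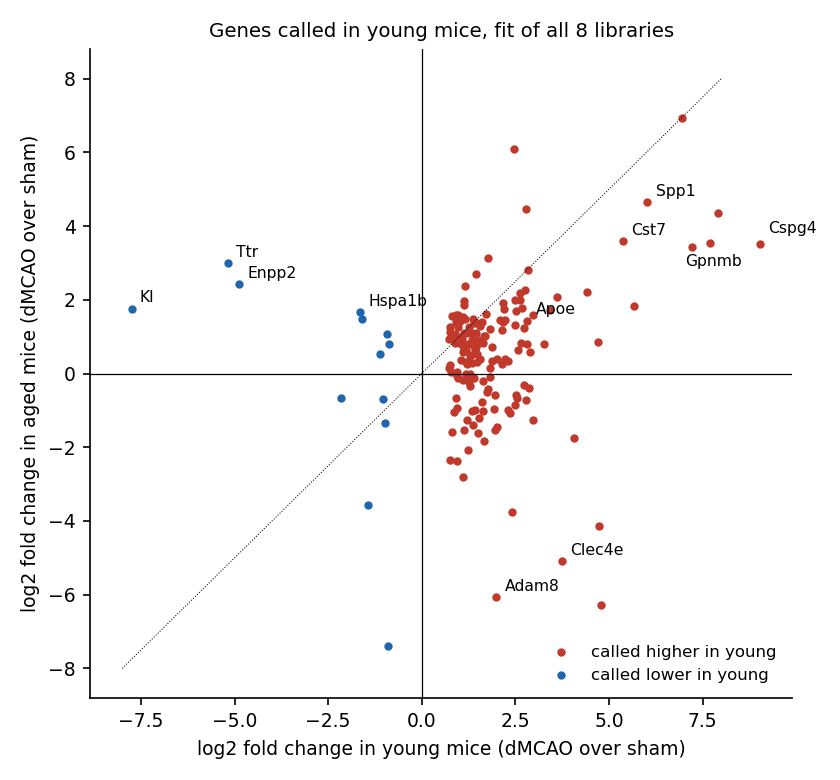
Log2 fold change of dMCAO over sham in aged mice (vertical) against that in young mice (horizontal) for the 173 genes called in young mice, both from the fit of all 8 libraries, with red for genes higher and blue for genes lower in young mice and the dotted line marking equal values. Spp1, Cst7 and Gpnmb lie in the upper right, and Ttr, Enpp2, Kl and Hspa1b in the upper left, where the direction is opposite.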

How the data were processed

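Libraries were made with a stranded total RNA kit, per the labels' protocols, and the submitters' processing notes name TopHat, TopHat2, Cufflinks 2.2.1, HTSeq 0.11.2 and mm10. Strand setting and annotation: not given in the sources used here. The authors deposited raw counts for 17261 gene symbols (a leading space was taken off 24) and FPKM for 23827. Genes passing edgeR's filter (minimum count 10, total 15) were fitted in edgeR 4.0.16 (R 4.3.3; TMM factors, quasi-likelihood test, two-sided, 2 residual degrees of freedom). A gene had to reach the filter's level in 2 libraries, so a gene low in 1 group could pass through the other group alone. SE is the fold change over the square root of F. The deposited FPKM values entered only alternatives, with limma 3.58.1 on log2 (FPKM + 1 or 0.1); DESeq2 1.42.0 and limma-voom were others. The script was tested on simulated data. A group at 0 was set at 3 counts; ratios with 1 to 3 counts carry exact binomial 95% intervals. Genes were named by rule: the 15 largest higher and 12 lower calls of at least 10 CPM without overlap, called members of 45 gene lists, the 2 smallest p of lists without a call, and the 5 smallest interaction p. Genes beyond it were chosen after their values were seen. Members and lists were chosen with earlier results of these data known. A few called list members are not reported here. Figures were drawn with matplotlib 3.10.9.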

Additional observations from a re-analysis of the deposited data

Results flagged for a closer look

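Only the called genes named by the rule above or after their values were seen were scanned here. For 15 of them, both libraries of each group moved one way in young and the opposite way in aged mice, without overlap. Called genes outside the scan, such as Pydc3, Bcl3, Ehd1 and Mapk6, had that pattern too, so 15 is not a total. The share of such genes over all tested genes was not counted. In young mice alone the groups did not overlap in 41.5% of all tested genes (20.8% higher, 20.7% lower). The 15 genes are therefore given as a description. The difference between the ages (log2, aged minus young) was tested for all 15 by the edgeR interaction, and none passed, with adjusted p from 0.154 to 0.568. It was positive for 8 genes, which fell in young mice and were higher in aged dMCAO than in aged sham libraries: Kl (9.51), Ttr (8.17), Enpp2 (7.31), Hspa1b (3.30), Hspa1a (3.10), Siglece (2.00), Hsp90aa1 (1.66) and Hsph1 (1.64). Ttr reached 3964 and 3071 CPM in aged dMCAO, from 643 and 244 CPM in aged sham, and Hspa1a 668 and 483 CPM from 213 and 197 CPM. It was negative for 7 genes that rose in young mice: Clec4e (−8.83), Adam8 (−8.06), Slfn4 (−4.24), Ptger4 (−3.49), Gla (−2.76), Plaur (−2.65) and Ifit3 (−2.54). Clec4e had 2.86 and 0 CPM in aged dMCAO and 9.31 and 81.0 CPM in aged sham, the aged dMCAO libraries being the shallowest of the series with Gla and Slfn4 at 0 in 1 of them.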

How the results depend on the processing

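The counts of called genes (160 higher, 13 lower) moved with the filter, the libraries fitted and the table. Leaving out 1 library gave 50 to 363 higher and 5 to 64 lower genes, and the interaction then gave 0 to 2. Without a filter there were 406 and 71, and 210 for the interaction, where DESeq2 gave 300. The fit of all 8 libraries gave 1 and 0. The FPKM table gave 6 and 6 with a pseudocount of 1, 11 and 11 with 0.1, 3 and 1 with 1 and no filter, and 0 and 0 without its column labelled young sham 1, a setting chosen after seeing the data; the interaction gave 9, 5 and 2 under the first 3. The cause was not tested. RLE and upper-quartile factors, DESeq2, limma-voom, robust estimation, Rn45s left out, a mean of at least 5 CPM and edgeR with its legacy option off (added after seeing the data) gave 135 to 212 higher and 12 to 18 lower genes; the planned legacy fit is the installed default and equals the values reported. A replicate block by number gave 117 and 11; same-numbered libraries did not deviate together (r = −0.092), so the numbers were not taken as pairs. Under FPKM these log2 fold changes turned their sign: Acta2 −0.58, Casp4 −0.093, Ccl12 −0.91, Col1a1 −2.31, Elane 0.19, Fosl2 −0.86, Ftl1 −0.25, Gem −0.23, Gpnmb −0.70, Hsph1 0.21, Pecam1 0.024, Psme1 −0.0089, Ralgapa1 −0.068, Txnrd1 −0.16 with a pseudocount of 1, unchanged without a filter; Acta2 −0.87, Casp4 −0.094, Ccl12 −0.91, Col1a1 −2.46, Elane 0.24, Fosl2 −0.91, Ftl1 −0.25, Gem −0.23, Hsph1 0.22, Pecam1 0.038, Psme1 −0.0089, Ralgapa1 −0.073, Txnrd1 −0.18 with 0.1; and, without the column labelled young sham 1, Acta2 −0.77, Casp4 −0.42, Ccl4 −0.14, Cd74 −0.15, Elane 0.22, Fosl2 −0.24, Gem −0.63, H2-K1 −0.21, Ifit3 −0.47, Mitf −0.57, Tyrobp −0.043. Leaving out 1 library turned Acta2 (−0.37 to 1.67), Ccr7 (−3.65 to 0.47), Cd79b (−0.22 to 0.70), Elane (−3.20 to 0.17), Slc1a2 (−2.13 to 0.71) and Trem2 (−0.14 to 0.30), none of them called. In the fits of counts no called gene named here changed its sign.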
